A study of Mus musculus with 8 samples.

Results

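Ctla4, Tigit, Pdcd1, Btla, Havcr2 and Lag3, which encode inhibitory receptors of lymphocytes and myeloid cells, were followed in liver macrophage preparations together with the co-stimulatory receptor gene Icos and the partner genes Cd86, Pdcd1lg2 and Cd274. RNA came from C57BL/6 mice, an inbred strain, on a western diet (WD, 4 libraries) or a normal diet (ND, 4 libraries). The series design gives 4 mice per diet, and no genotype, transgene, age or duration of the diet is given in the sources used here. The genes were chosen by symbol, with their fold changes and p-values known, from the authors' comparison of the diets, and 8 of the 10 were found among its 2386 listed genes. The table keeps genes with an unadjusted p below 0.05 and a change of more than 2-fold, so nothing can be said on whether Icos and Cd274, which are not in it, were unchanged, changed less or went unmeasured. Its header writes the groups as WDV and NDV with the V unexplained, and every value here rests on reading them as the western and normal diet groups.

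Inhibitory receptors of this kind restrain activated T cells and natural killer (NK) cells. CTLA-4 competes with the stimulatory receptor CD28 for CD80 and CD86 on antigen-presenting cells, PD-1 (Pdcd1) binds PD-L1 (Cd274) and PD-L2 (Pdcd1lg2), BTLA binds HVEM (Tnfrsf14), and TIGIT competes with CD226 for nectin family proteins. LAG-3 binds MHC class II, and TIM-3 (Havcr2) is carried by macrophages and dendritic cells as well as by lymphocytes. In the liver, Kupffer cells and sinusoidal endothelium present antigen to passing lymphocytes, a setting known for immune tolerance.

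All 8 listed genes were higher in WD, by 2.19-fold to 4.08-fold, in the authors' deposited table, and each had an adjusted p below 0.05. This describes how they were found and is no test, since the genes were chosen with this comparison in view. Of 17531 genes tested by the authors, a number recovered from their adjusted p-values, 3.0% were listed as higher at that limit and 8.35% as lower. The median log2 fold change (WD over ND) of the 8 genes in the authors' deposited table was 1.59, beside 1.38 for the 706 listed genes with a positive fold change. The table holds 1 mean normalized read count per gene over all libraries and no value for a single library. The mean count of each diet was therefore computed from that mean and the fold change for 4 and 4 libraries. Its standard error (SE) was taken from the spread that the deposited SE implies, and overlap between libraries of the diets cannot be examined. In a bulk preparation, more cells of a type and more RNA per cell cannot be told apart.

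Ctla4 had the largest fold change of the set. The gene (ENSMUSG00000026011, chromosome 1, 60887000 to 60915832, plus strand, mm10) had an implied mean of 56.1 ± 11.4 normalized counts in WD and 13.8 ± 3.2 in ND (SE, n = 4 each). The authors' deposited table gave it a log2 fold change of 2.03 ± 0.45 (SE), which is 4.08-fold with a 95% interval of 2.22 to 7.47. The deposited adjusted p was 5.12e-05. Ctla4 also had the widest interval of the 8 genes. The gap between its implied means, larger than the SE of either, follows from the deposited fold change and SE and is no further observation.

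Pdcd1, the gene of PD-1, stood at the other end. Its implied means were 38.8 ± 6.1 normalized counts in WD and 17.7 ± 3.2 in ND (SE, n = 4 each; ENSMUSG00000026285, chromosome 1, 94038305 to 94052553, minus strand). The authors' deposited table gave Pdcd1 a log2 fold change of 1.13 ± 0.35, with a 95% interval of 1.37 to 3.50 as a fold and an adjusted p of 0.00565. Pdcd1 thus lay closest to the 2-fold limit of the table, with the lowest mean count of the set (28.3 in the authors' deposited table). The values of genes just outside that limit are not in the table.

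Tigit (ENSMUSG00000071552, chromosome 16, 43648867 to 43664146, minus strand) encodes a receptor of T and NK cells. It had 51.2 ± 7.1 implied normalized counts in WD and 14.4 ± 2.6 in ND (SE, n = 4 each), and a log2 fold change of 1.83 ± 0.32 in the authors' deposited table (3.54-fold, adjusted p 2.66e-07). Btla (ENSMUSG00000052013, chromosome 16, 45224315 to 45257670, plus strand) is used by B cells, T cells and dendritic cells. Its implied means were 215.7 ± 27.9 normalized counts in WD and 72.0 ± 9.9 in ND (SE, n = 4 each), and the authors' deposited table gave it a log2 fold change of 1.58 ± 0.27 (95% interval 2.07 to 4.34 as a fold, adjusted p 1.05e-07). Lag3 (ENSMUSG00000030124, chromosome 6, 124904361 to 124911705, minus strand) lies 16.1 kb from the T cell gene Cd4, which was not listed. Lag3 had 85.6 ± 9.6 implied normalized counts in WD and 32.9 ± 4.3 in ND (SE, n = 4 each), at a log2 fold change of 1.38 ± 0.25 in the authors' deposited table (2.60-fold, adjusted p 4.19e-07). The implied WD mean exceeded the ND mean in each of these 3 receptor genes by more than their SE, which again follows from the deposited values.

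Havcr2, the TIM-3 gene, was the most abundant receptor gene of the set and the one with the smallest adjusted p. It had 2071 ± 163 implied normalized counts in WD and 661 ± 53 in ND (SE, n = 4 each; ENSMUSG00000020399, chromosome 11, 46454935 to 46481255, plus strand). The authors' deposited table gave Havcr2 a log2 fold change of 1.65 ± 0.16, or 3.13-fold with a 95% interval of 2.51 to 3.90, and an adjusted p of 1.58e-22. By its p-value Havcr2 stood at rank 311 of the tested genes.

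Among the partners, Cd86 and Pdcd1lg2 were listed and Cd274 was not. Cd86 (ENSMUSG00000022901, chromosome 16, 36603869 to 36666081, minus strand) encodes the ligand that CD28 and CTLA-4 share. Its implied means were 3178 ± 180 normalized counts in WD and 1426 ± 82 in ND (SE, n = 4 each), and the authors' deposited table gave a log2 fold change of 1.16 ± 0.12 (2.23-fold, 95% interval 1.90 to 2.61, adjusted p 2.04e-21). Cd86 had the narrowest interval of the 8 genes, and its lower bound lay below 2-fold. Pdcd1lg2, the PD-L2 gene (ENSMUSG00000016498, chromosome 19, 29410919 to 29471161, plus strand), had 141.2 ± 18.6 implied normalized counts in WD and 46.5 ± 6.7 in ND (SE, n = 4 each). The authors' deposited table gave Pdcd1lg2 a log2 fold change of 1.60 ± 0.28 (3.04-fold, adjusted p 1.88e-07).

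**Figure D1:**
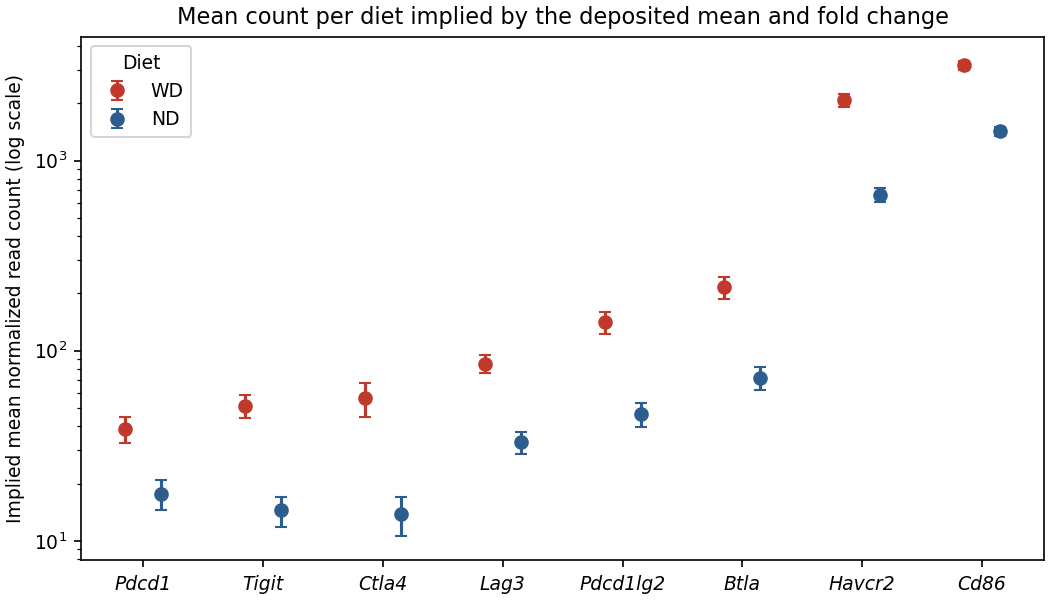
Implied mean normalized read count of each listed gene (log axis) in WD and ND, with bars of 1 SE (n = 4 libraries per diet, from the spread implied by the deposited SE). In each of the 8 genes the WD point lies above the ND point, from Pdcd1 (38.8 and 17.7) to Cd86 (3178 and 1426).

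The order of the fold changes, from Ctla4 through Tigit, Havcr2, Pdcd1lg2, Btla, Lag3 and Cd86 to Pdcd1, is a description and was not tested. The 95% intervals of neighbours in this order overlapped in every case, and those of all 28 pairs of the 8 genes did too, which does not show that the fold changes were equal. A difference of 0.20 on the log2 scale separated Ctla4 from Tigit in the authors' deposited table, and 0.02 separated Cd86 from Pdcd1. For 5 genes (Ctla4, Tigit, Havcr2, Pdcd1lg2 and Btla) the whole interval lay above 2-fold. This limit was passed by 114 of the 706 listed genes with a positive fold change, or 0.65% of tested genes. The share of tested genes is no like base, because listing itself required a change of more than 2-fold. The intervals of Lag3, Cd86 and Pdcd1 reached below it. With a Bonferroni limit over all tested genes, Ctla4 and Pdcd1 no longer passed.

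**Figure D2:**
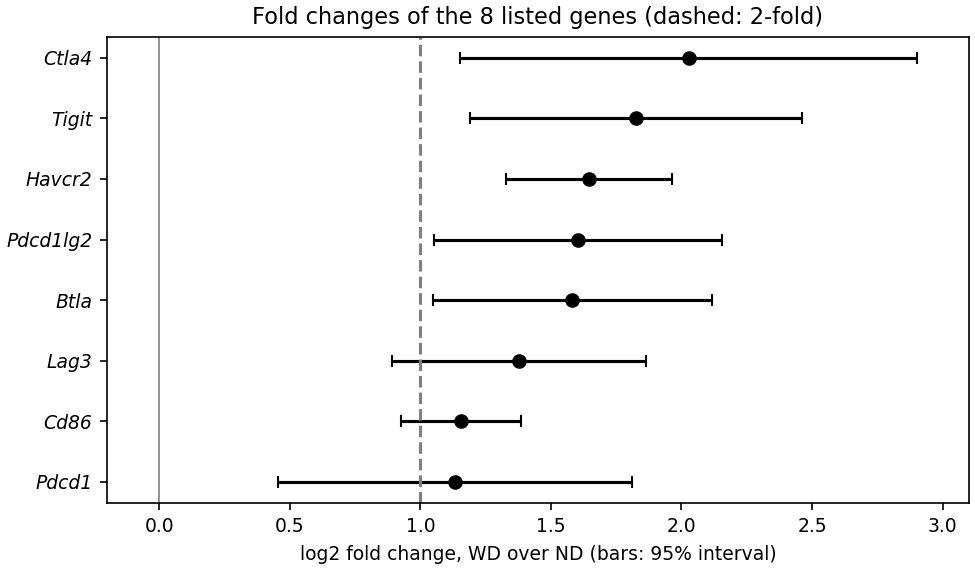
The log2 fold change (WD over ND, horizontal axis) of the 8 listed genes from the authors' table, with 95% intervals as bars. The dashed line marks 2-fold, which the intervals of Lag3, Cd86 and Pdcd1 cross.

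The levels fell into separate ranges. Per kb of exon, Cd86 had 867.9 ± 49.3 implied normalized counts in WD and 389.4 ± 22.4 in ND, and Havcr2 had 761 ± 60 in WD and 243 ± 19 in ND (SE, n = 4 each). The other 6 genes lay between 20.1 (Pdcd1) and 72.0 (Pdcd1lg2) implied normalized counts per kb in WD, and between 5.91 (Ctla4) and 23.7 (Pdcd1lg2) in ND. Cd86 and Havcr2 thus stood above the rest in both diets by far more than these errors. The SE hold no error from the exon length taken for each gene (0.919 kb for Tigit to 3.66 kb for Cd86). This limit applies to all comparisons of level between genes here. Lower in the order, Pdcd1lg2 (72.0 ± 9.5 per kb) and Btla (63.5 ± 8.2 per kb) did not differ beyond their SE in WD, nor did Btla and Tigit (55.7 ± 7.7 per kb), or Ctla4 (24.1 ± 4.9 per kb) and Pdcd1 (20.1 ± 3.2 per kb).

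The precision behind the values followed the counts only in part. At the implied means, counting alone would give Tigit an SE of 0.21 on the log2 scale, and its deposited SE was 1.51 times as large. That ratio was 1.67 for Pdcd1 and 1.68 for Lag3, 2.06 for Ctla4, 2.31 for Pdcd1lg2 and 2.78 for Btla, and it reached 5.03 for Havcr2 and 5.08 for Cd86. Counting error thus made up a larger part of the SE in Tigit, Pdcd1 and Lag3 than in Havcr2 and Cd86. Expressed as a coefficient of variation implied by the deposited SE, the spread beyond counting was 11.2% for Cd86, 15.6% for Havcr2, 19.6% for Lag3 and 23.8% to 27.2% for Tigit, Pdcd1lg2, Btla and Pdcd1. Ctla4 stood highest at 38.2%, against a median of 26.8% over all listed genes. These values rest on the authors' fit and were not measured between libraries.

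Fixed lists of related genes were then examined, chosen with earlier results of these data known. Of 90 such genes outside the set of 10, 29 were listed, 21 of them higher and 4 lower at an adjusted p below 0.05. These are 23.3% and 4.44% of the 90, beside 3.0% of all tested genes listed as higher and 8.35% as lower, and the same shares of tested genes apply to each list below. For the 29, which hold genes of both directions, the median log2 fold change was 1.19 by the authors' deposited table. It was -1.55 for all listed genes, most of which were lower in WD, and 1.38 for the 706 listed with a positive fold change.

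Among 17 inhibitory receptor genes, 7 were listed and all 7 were higher, 6 of them the receptors already described. Cd96, a receptor of T and NK cells that shares ligands with TIGIT, was the remaining one, at 15.8 implied normalized counts in WD and 4.22 in ND. The authors' deposited table gave Cd96 a log2 fold change of 1.90 ± 0.66 (adjusted p 0.0162). The 10 others, among them Cd160, Klrg1, Lair1 and Vsir, were not listed.

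Of 20 partner genes, 4 rose (Cd86, Pdcd1lg2, Tnfrsf14 and Icosl), 2 fell and 14 were not listed. The 2 lower genes are 10.0% of the list, near the 8.35% of tested genes called lower. Tnfrsf14, which encodes the BTLA partner HVEM, had 257.2 implied normalized counts in WD and 109.4 in ND, with a log2 fold change of 1.23 ± 0.17 in the authors' deposited table (adjusted p 6.61e-12). Icosl, the gene of the ICOS ligand, had 737.9 implied normalized counts in WD and 326.1 in ND (log2 1.18 ± 0.22 in the authors' deposited table, adjusted p 1.87e-06), while Icos itself was not listed. The lower genes were Nectin2 and Nectin3, of the nectin family that TIGIT and its relatives bind. Nectin2 fell 3.26-fold, to 98.8 implied normalized counts in WD against 322.5 in ND (log2 -1.71 ± 0.20 in the authors' deposited table, adjusted p 1.20e-15). Nectin3 fell 5.56-fold (log2 -2.47 ± 0.36, adjusted p 2.30e-10, in the authors' deposited table), and Pvr, Nectin1 and Nectin4 were not listed. All 12 markers of sinusoidal endothelium on a fixed list fell as well, with a median log2 fold change of -3.26 in the authors' deposited table, and their part in the nectin values was not tested. Cd80, and the TIM-3 partner genes Lgals9, Ceacam1 and Hmgb1, were not listed.

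Of 15 stimulatory receptor genes, 6 were higher, none was lower and 9, Icos included, were not listed. Cd226, which competes with TIGIT for its ligands, had 18.8 implied normalized counts in WD and 4.88 in ND, with a log2 fold change of 1.94 ± 0.59 in the authors' deposited table (adjusted p 0.00514). Cd28, the stimulatory counterpart of Ctla4, had 37.2 implied normalized counts in WD and 17.6 in ND, with a log2 fold change of 1.08 ± 0.34 in the authors' deposited table (adjusted p 0.00777). Opposed receptors of the same ligands were thus higher side by side. The TNF receptor family genes Tnfrsf9 (4-1BB, 1.46 ± 0.25) and Tnfrsf18 (GITR, 1.37 ± 0.40) and the lymphocyte adhesion gene Slamf6 (1.01 ± 0.24) completed the group in the authors' deposited table with Havcr1. Havcr1, a relative of Havcr2, rested on 8.99 implied normalized counts in WD and 0.55 in ND (log2 4.04 ± 1.10 in the authors' deposited table).

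Of 10 TNF and SLAM family genes that antigen-presenting cells use, 4 were higher and none lower. Slamf7 (1.71 ± 0.19), Slamf8 (1.94 ± 0.23), Tnfsf4 (the OX40 ligand gene, 1.31 ± 0.41) and Tnfsf15 (1.75 ± 0.58) passed in the authors' deposited table, and Tnfsf8 (1.11 ± 0.51, adjusted p 0.0927) did not. Cd40, Cd48, Cd70, Tnfsf9 and Tnfsf18 were not listed.

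Signalling genes of these receptors were mostly outside the table. Of 16, 2 were higher (12.5%) and 1 was lower (6.25%, near the share of tested genes called lower), and the phosphatase genes Ptpn6, Ptpn11 and Inpp5d, which inhibitory receptors recruit, were not listed. The ubiquitin ligase gene Cblb, a brake on T cell activation (1.01 ± 0.13), and the adaptor gene Sh2d1b1 (1.30 ± 0.26) rose in the authors' deposited table. Prkcq, the gene of protein kinase C theta, fell (-1.84 ± 0.21), and Sh2d1a stood at 1.64 ± 0.67 with an adjusted p of 0.0508 in the authors' deposited table.

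Of 22 genes tied to activated, regulatory or exhausted T cells, 6 were higher (27.3%), 1 was lower (4.55%) and 13 were not listed, among them Foxp3, Ikzf2, Prdm1 and Il10. Il2ra, the interleukin-2 receptor alpha gene, had 72.2 implied normalized counts in WD and 22.5 in ND (log2 1.68 ± 0.29 in the authors' deposited table, adjusted p 1.72e-07). Entpd1 (CD39, 1.19 ± 0.14), Nr4a3 (1.10 ± 0.22), Tcf7 (1.08 ± 0.31) and Eomes (1.12 ± 0.37) also rose in the authors' deposited table, as did Tbx21, the gene of the T and NK cell factor T-bet (adjusted p 0.0115). Entpd1 (505.6 mean normalized counts per kb of exon) and Nr4a3 (196.7 per kb) lay above every listed T cell marker, the highest being Trbc1 (82.7 per kb). Which cells carried their RNA was not tested. Tox, a factor of exhausted T cells, stood at 1.40 ± 0.64 without passing (adjusted p 0.0854), and its relative Tox2 fell (-2.24 ± 0.31), in the authors' deposited table. Ikzf4 stood at -1.46 ± 0.73 with an adjusted p of 0.122 in the authors' deposited table.

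**Figure D3:**
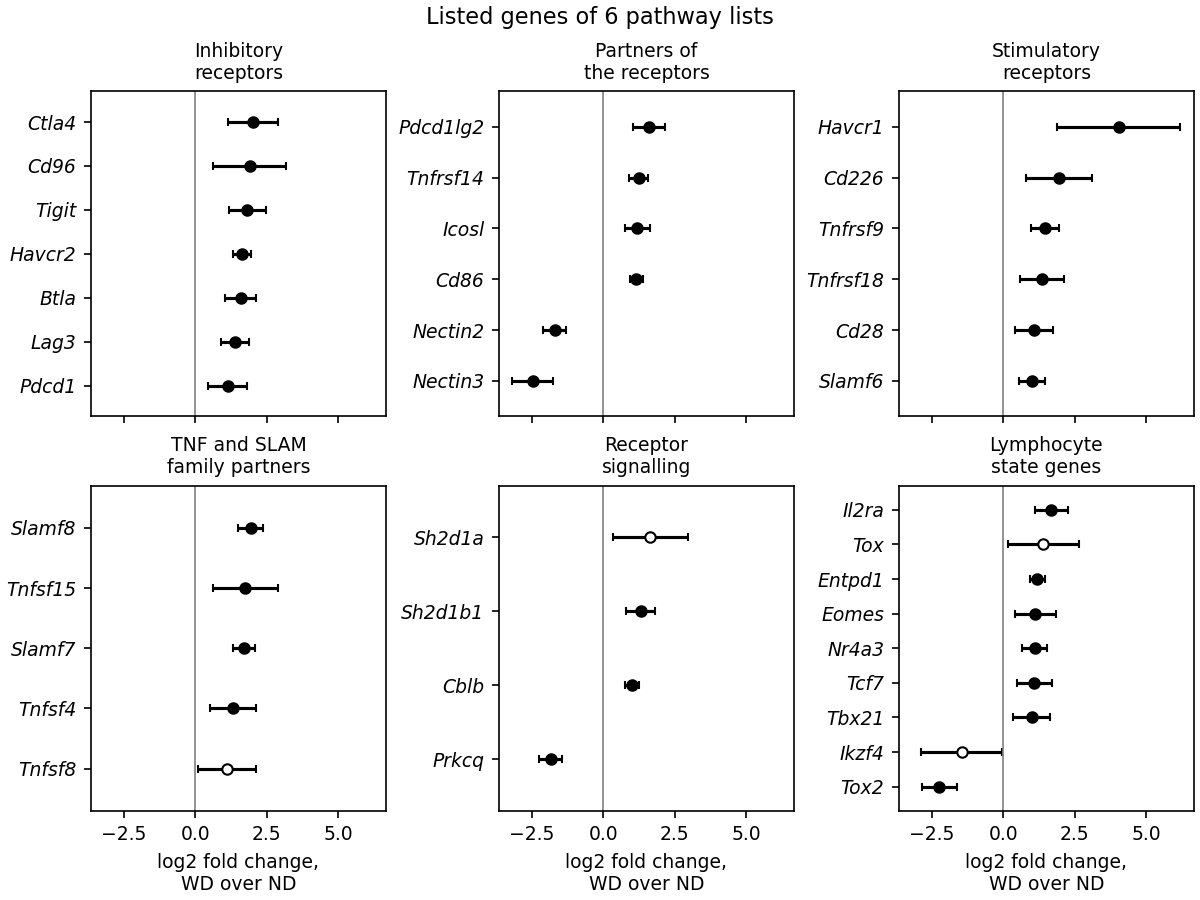
The log2 fold change (WD over ND) of every listed gene on the 6 pathway lists, with 95% intervals as bars. Filled points had an adjusted p below 0.05 and open points did not. Nectin2, Nectin3, Prkcq and Tox2 are the filled points left of 0.

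Markers of other cells differed between the diets too, in either direction. Of 15 T cell markers, 7 were higher, none was lower and 6, including Cd3d, Cd3e, Cd3g and Cd4, were not listed. The 9 listed T cell markers summed to 277.1 implied normalized counts in WD and 109.0 in ND. Of 12 NK cell markers, 10 were higher, and these summed to 3589 in WD and 1292 in ND. Of 13 dendritic cell markers, 6 were higher and 1 (Zbtb46) was lower, and the 7 summed to 4946 in WD and 1992 in ND. As ratios these sums were 2.54, 2.78 and 2.48, within the range of fold changes of the 8 genes, though each sum holds only markers that passed the 2-fold limit. The range is not particular to these cells. Ratios of the sums given below were 2.24 for B and plasma cell markers and 2.49 for hepatocyte markers. They were lower for recruited monocyte (0.55), mast cell (0.70) and sinusoidal endothelial markers (0.12). Recruited monocyte markers had 6 higher of 12 and 1 lower, the fibronectin gene Fn1 (log2 -1.13 ± 0.27), with a median of 1.44 over the 7 in the authors' deposited table. Their sum was lower in WD, at 50589 implied normalized counts in WD and 92113 in ND, of which Fn1 made up 40559 in WD and 88801 in ND. B and plasma cell markers had 2 higher of 11, which summed to 2389 in WD and 1064 in ND. Mast cell markers had 6 higher of 7 and 1 lower, the receptor gene Kit (log2 -1.74 ± 0.15 in the authors' deposited table). The mast cell markers also had a lower sum in WD, at 924.8 in WD and 1314 in ND, of which Kit made up 378.9 in WD and 1267 in ND. Hepatocyte markers had 3 higher of 10, and the 4 listed summed to 1830 in WD and 735.6 in ND. Sinusoidal endothelial markers summed to 8067 in WD and 66072 in ND. None of 14 Kupffer cell markers, among them Adgre1, Clec4f, Timd4 and Vsig4, was listed, so the labelled macrophage identity could not be checked on them. The part of any of these cells in the values of the inhibitory receptors was not tested.

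Beside the markers, the set divided by level. Per kb of exon, the T cell receptor genes Trbc1 and Trbc2 had mean normalized counts of 82.7 and 40.5, and the NK receptor gene Ncr1 had 27.3. Tigit (35.7 per kb), Lag3 (28.1 per kb), Ctla4 (15.0 per kb) and Pdcd1 (14.6 per kb) lay below Trbc1 and Trbc2 on this scale. They lay above all other listed T cell markers, from Thy1 (12.7 per kb) through Cd28 (4.48 per kb) to Bcl11b (0.42 per kb). Havcr2 (502.1 per kb) and Cd86 (628.7 per kb) lay above every listed T and NK cell marker, the highest of which was Gzmb at 426.9 per kb. Both also lay above 6 of the 7 listed dendritic cell markers, all but Ccr7 (664.7 per kb), and above 5 of the 7 listed monocyte markers, all but Plac8 (1034 per kb) and Fn1 (5535 per kb).

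**Figure D4:**
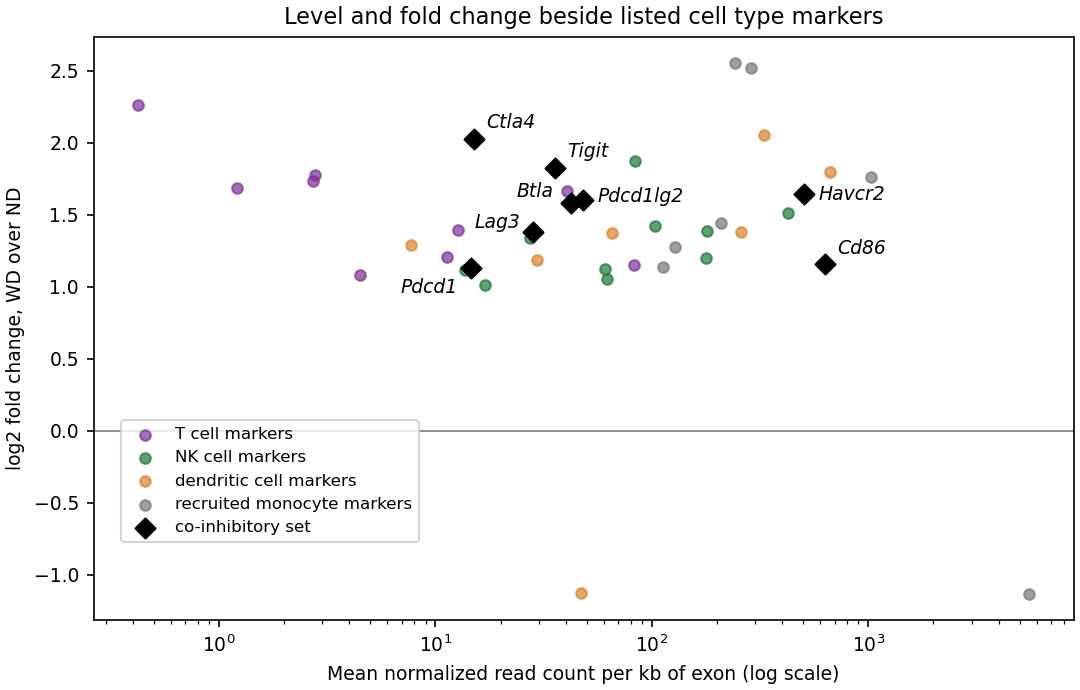
Mean normalized read count per kb of exon (log axis) against log2 fold change (WD over ND) for the 8 genes (diamonds) and for listed markers of T cells, NK cells, dendritic cells and recruited monocytes (circles). Havcr2 (502.1 per kb) and Cd86 (628.7 per kb) stand to the right of all T and NK cell markers, and the other 6 genes stand between 14.6 and 47.9 per kb.

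The authors' own term enrichment, made on genes with a positive fold change, adds no independent measurement. In the authors' deposited table, 39 Gene Ontology terms with a Benjamini p below 0.05 hold a gene of the set, T cell terms and others. Cellular response to lipopolysaccharide held 22 genes (Benjamini p 8.17e-09) in the authors' deposited table, with Cd86, Pdcd1lg2 and Havcr2 among them. Havcr2 alone of the set was in innate immune response (Benjamini p 1.38e-25) and inflammatory response (Benjamini p 2.94e-23) there. In the authors' deposited table, 7 of the 8 genes (all but Tigit) belong to the Gene Ontology term adaptive immune response, which held 35 genes at 11.2-fold enrichment (Benjamini p 2.75e-22), 27 of them with an adjusted p under 0.05. Negative regulation of T cell proliferation held 8 genes at 13.5-fold (Benjamini p 0.000105) in the authors' deposited table, and 5 of these were Cd86, Btla, Ctla4, Pdcd1lg2 and Havcr2. Positive regulation of T cell proliferation held 14 genes at 15.9-fold (Benjamini p 5.78e-10) in the same deposited table of the authors, with Cd86, Pdcd1lg2 and Havcr2 among them. These 3 genes are thus annotated to both directions of the process. Tigit and Lag3 were in negative regulation of T cell activation, a term of 5 genes (Benjamini p 0.00644) in the authors' deposited table.

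Several of these genes lie near relatives in the genome, and such pairs did not always share a place in the table. On chromosome 1, Cd28 and Ctla4 are adjacent protein-coding genes, 113.6 kb apart by their GENCODE M21 bounds, and were both higher. Icos, 62.1 kb beyond Ctla4, was not listed. On chromosome 19, Pdcd1lg2 was listed and Cd274, which ends 22.8 kb before it, was not. On chromosome 11, Havcr2 and its relative Havcr1 were both higher, but they lie 253.8 kb apart with 4 protein-coding genes between them. Whether the counting used strand is not given in the sources used here, but in the GENCODE M21 annotation no exon of another gene overlapped an exon of the 8 listed genes on either strand.

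The 250 bases before the RefSeq start site (GRCm38.p6, the mm10 build) were held for 7 of the 10 genes, and 4 of these windows are shown because they belong to the 2 receptor genes highest in counts and the 2 with the largest fold changes. In Havcr2 and Btla, capitals mark GAGGAAGT, a binding sequence of PU.1, a factor of myeloid and B cells. In Ctla4 and Tigit, capitals mark TTTCC, the reverse complement of GGAAA, the core bound by NFAT, which acts downstream of the T cell receptor. RefSeq and GENCODE differ on the start of Ctla4: its window lies inside the GENCODE gene, which begins at 60887000. They differ on Btla too: its window ends at 45224336, past the GENCODE start at 45224315. The marked GAGGAAGT of Btla lies inside the GENCODE gene.
Havcr2, chr11:46454681-46454930, plus strand: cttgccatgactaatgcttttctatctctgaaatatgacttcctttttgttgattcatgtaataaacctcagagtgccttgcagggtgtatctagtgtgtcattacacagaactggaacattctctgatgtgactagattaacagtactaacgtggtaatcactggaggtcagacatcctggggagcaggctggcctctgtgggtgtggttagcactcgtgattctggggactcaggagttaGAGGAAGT
Btla, chr16:45224087-45224336, plus strand: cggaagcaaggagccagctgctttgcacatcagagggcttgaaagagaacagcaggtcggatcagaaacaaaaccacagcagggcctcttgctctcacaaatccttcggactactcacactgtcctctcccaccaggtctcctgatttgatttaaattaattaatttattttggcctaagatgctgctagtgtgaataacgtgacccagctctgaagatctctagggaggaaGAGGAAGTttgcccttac
Ctla4, chr1:60908775-60909024, plus strand: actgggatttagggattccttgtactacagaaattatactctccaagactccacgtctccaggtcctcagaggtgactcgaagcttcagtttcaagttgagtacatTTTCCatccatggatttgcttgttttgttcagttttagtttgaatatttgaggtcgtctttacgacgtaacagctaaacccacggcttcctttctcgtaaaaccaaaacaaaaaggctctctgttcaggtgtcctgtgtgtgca
Tigit, chr16:43664185-43664434, minus strand: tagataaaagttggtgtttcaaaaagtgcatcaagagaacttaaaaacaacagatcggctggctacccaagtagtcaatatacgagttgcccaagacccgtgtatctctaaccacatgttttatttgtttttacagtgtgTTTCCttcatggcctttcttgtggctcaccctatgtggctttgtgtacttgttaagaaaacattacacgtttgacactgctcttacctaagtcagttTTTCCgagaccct

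GAGGAAGT, searched on both strands, began 8 bases before the RefSeq start site in Havcr2 and 18 bases before it in Btla. By the GENCODE start, the Btla match is not upstream of the gene. The sequence was in none of the other 5 windows (Ctla4, Pdcd1, Tigit, Cd274 and Pdcd1lg2). It was found in 2.44% of all 32851 windows of this length. GGAAA was in 5 of the 7 windows, all but those of Havcr2 and Btla, but also in 55.6% of all windows. The AP-1-like sequence TGANTCA, with any base at its centre, was in the Havcr2 window alone of the 7, as TGATTCA (6.75% of all windows). The RUNX sequence TGTGGT was in those of Havcr2, Tigit and Btla (14.0% of all windows). TTCNNNGAA, a sequence bound by STAT factors, was in none of the 7 and in 7.02% of all windows. Forms with a longer gap between TTC and GAA were not part of the search, so STAT-type sequences are not excluded. The Pdcd1lg2 window holds such letters, TTCCTCAGAA, and their share among all windows was not computed. The sequences searched were chosen after the windows had been seen, and a match describes letters, not binding.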

How the data were processed

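The 8 libraries were polyadenylated RNA libraries of liver macrophages, 4 per diet, grouped by the diet label. The build mm10 and the tools STAR, HISAT2, STAR-Fusion, StringTie, featureCounts, DESeq and edgeR are named, with neither roles nor versions, per the submitters' processing notes. The deposited file is the authors' comparison of the diets, and its column names are, per the file headers, those of DESeq2 results. Its signal column, as deposited, holds the mean normalized read count per gene. Its log2 column, as deposited, holds the fold change of WD over ND, and the deposited scores are the SE and the test statistic. The statistic equalled fold change over SE within 7.1e-08, so the fold changes were taken as not shrunk. The authors' p-value and Benjamini-Hochberg adjusted p-value were used as deposited, as were the authors' gene count, fold enrichment ratio and Benjamini p-value per term. Listed genes had p-values up to 0.04995 and absolute log2 fold changes from 1.0001. Depth per library is unknown, and no count test could be run.

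Genes were called at an adjusted p below 0.05, and 95% intervals are 1.96 SE either side. The 77 genes without an adjusted p were not called. The 17531 tested genes are the whole number for which 91.0% of Benjamini-Hochberg ranks came out whole within 0.02, a step tested on simulated data. Diet means follow from the mean count and fold change for 4 and 4 libraries, assuming equal weights. Spread beyond counting is the part of the squared SE left after Poisson error at those means, treated as equal in both diets. For 57 listed genes the deposited SE was below the Poisson error, and their spread was set to 0. Exon lengths and positions are from GENCODE M21, in which all 2386 listed identifiers were found. The set of genes and the 15 lists (6 of pathway genes, 9 of cell markers) were chosen with earlier results of these data known. 1 gene of the pathway lists is not reported here and was left out of their counts. All members and every other listed pathway gene are named, and markers only where they define a cell type or stand at the edge of a list. Python 3.11.15 and pandas 2.3.3 were used.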

Additional observations from a re-analysis of the deposited data

How the results depend on the processing

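Of 24 alternatives computed for 6 results, 18 stayed near the value reported (within 1.5 times for counts and shares, within the median SE of the 8 genes for medians). Requiring a 95% interval wholly beyond 2-fold left 5 of the 8 genes, 4 of 7 inhibitory receptors, 1 of 4 higher partner genes (Pdcd1lg2) and 1 of 6 stimulatory receptors (Havcr1). A Bonferroni limit over all tested genes left 6 of the 8 genes, 4 of 7 inhibitory receptors and 1 of 6 stimulatory receptors (Tnfrsf9). These are stricter limits by construction. An adjusted p below 0.01 kept all 8 genes. The unadjusted p and a mean count of at least 10 did too, but neither could lose any of the 8. Every listed gene had an unadjusted p below 0.05, and the lowest mean count of the 8 was 28.3. Such outcomes, fixed in advance, are among the 18. The median log2 fold change of 1.59 became 1.41 as an inverse-variance weighted mean, 1.60 without Pdcd1 and 1.65 over 5 receptors. Those 5 were Ctla4, Tigit, Pdcd1, Btla and Havcr2, without the receptor gene Lag3 (1.38 in the authors' deposited table). No paired analysis was possible because the columns carry no library, and for the same reason no library could be left out, no other normalization tried, and no other form of the implied diet means computed. Of the 8 genes, counting error was largest for Ctla4, Tigit and Pdcd1.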
